A study of Nematostella vectensis with 33 samples.

Results

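In embryos of the sea anemone Nematostella vectensis treated with the cyclic dinucleotide 2'3'-cGAMP, 103 genes that the compound raised stood higher still when short hairpin RNAs (shRNAs) against NF-kB were present. These 103 genes came from 21801 genes measured in both embryo experiments. A gene was taken when its mean log2(value + 1) over the 6 libraries from 2'3'-cGAMP embryos exceeded that over the 6 libraries from untreated embryos by at least 1. It also had to have a value of at least 30 in each of 4 NFkB shRNA libraries, all of these above all 3 GFP shRNA libraries, and a difference between their log2 means of at least 0.8. Of 3242 genes raised by 2'3'-cGAMP and measured in both experiments, 103 met the second condition, while 201 were lower with the NFkB shRNAs by the mirrored condition. A further 191 genes were higher with the NFkB shRNAs without being raised by 2'3'-cGAMP. The genes were thus chosen by the embryo response to 2'3'-cGAMP and by the difference between NFkB and GFP shRNAs, and both are given as descriptions without a test.

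Cyclic dinucleotides are small signalling molecules, and 2'3'-cGAMP is made in animal cells by cGAS-like enzymes that sense foreign or misplaced nucleic acid. The compound binds the receptor STING, which in vertebrates turns on transcription factors of the interferon regulatory and NF-kB families. NF-kB is a transcription factor that is held in the cytoplasm by inhibitors until a signal releases it. It activates many immune genes, among them genes for its own inhibitors. STAT proteins are transcription factors downstream of cytokine receptors in vertebrates. The shRNA against GFP serves as a control for injection and for the presence of a hairpin.

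Polyadenylated RNA was sequenced from whole embryos and whole polyps in 33 libraries of 16 groups. In the first embryo experiment, every embryo carried an injected shRNA and was exposed to 100 µM 2'3'-cGAMP for 4 h. Its groups carried NFkB shRNA 1 or NFkB shRNA 2 (2 libraries each), STAT shRNA 1 or STAT shRNA 2 (2 libraries each), or GFP shRNA (3 libraries). The second embryo experiment crossed STING shRNA 1, STING shRNA 2 and GFP shRNA with 2'3'-cGAMP at the same dose and time or no treatment, with 2 libraries in each of 6 groups. Polyps were exposed for 24 h to 500 µM of 2'3'-cGAMP, 3'3'-cGAMP, c-di-AMP or c-di-GMP, or left untreated, with 2 libraries in each of 5 groups. No embryos with NFkB shRNAs and without 2'3'-cGAMP were among the samples, so a difference before treatment and a difference in the response cannot be told apart in the NFkB libraries. Whether replicate libraries derive from separate animals or spawnings is not given in the labels, so each p-value refers to the spread among these libraries alone, which may be technical. In RNA from whole animals, fewer cells of a type and less RNA per cell cannot be told apart.

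Values are the authors' normalized signal per gene and are not adjusted for gene length, so levels are compared between libraries and not between genes. Estimated depth per library, in M reads, was 14.9 to 25.9 with NFkB, STAT or GFP shRNAs (first embryo experiment), 18.4 to 31.7 for the second embryo experiment and 9.37 to 17.4 for polyps. The polyp 2'3'-cGAMP libraries stood apart, with deposited totals of 22.3 and 22.4 M, against 9.56 to 10.5 M in the other 8 polyp libraries. Untreated GFP shRNA library 1 of the STING experiment also stood apart, with 21.6% of its genes at 0 against 3.99 to 14.4% in the other libraries of that table. Results that rest on these libraries are given below with the alternatives. Of the 103 genes, 81 were matched to the jaNemVect1.1 annotation, all of them as protein coding, under placeholder symbols with the prefix LOC. The other 22 are given by NCBI Gene number. What the encoded proteins do was not analysed here, and neither was the depletion of NF-kB, STAT or STING transcripts, since no name tied a gene to them.

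The 103 genes stood above their GFP level by a median of 1.08 on the log2 scale in NFkB shRNA embryos, with a range of 0.80 to 2.92. The difference was at least 1 for 64 genes and at least 2 for 7 genes. Together the genes held 1.89 to 2.56% of the deposited total in the 4 NFkB libraries, 1.16 to 1.32% in the 4 STAT libraries and 0.846 to 1.31% in the 3 GFP libraries. Among all tested genes, 6.27% had all NFkB libraries above all GFP libraries, and the median difference was -0.04. These figures follow from how the genes were chosen and carry no test.

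**Figure D1:**
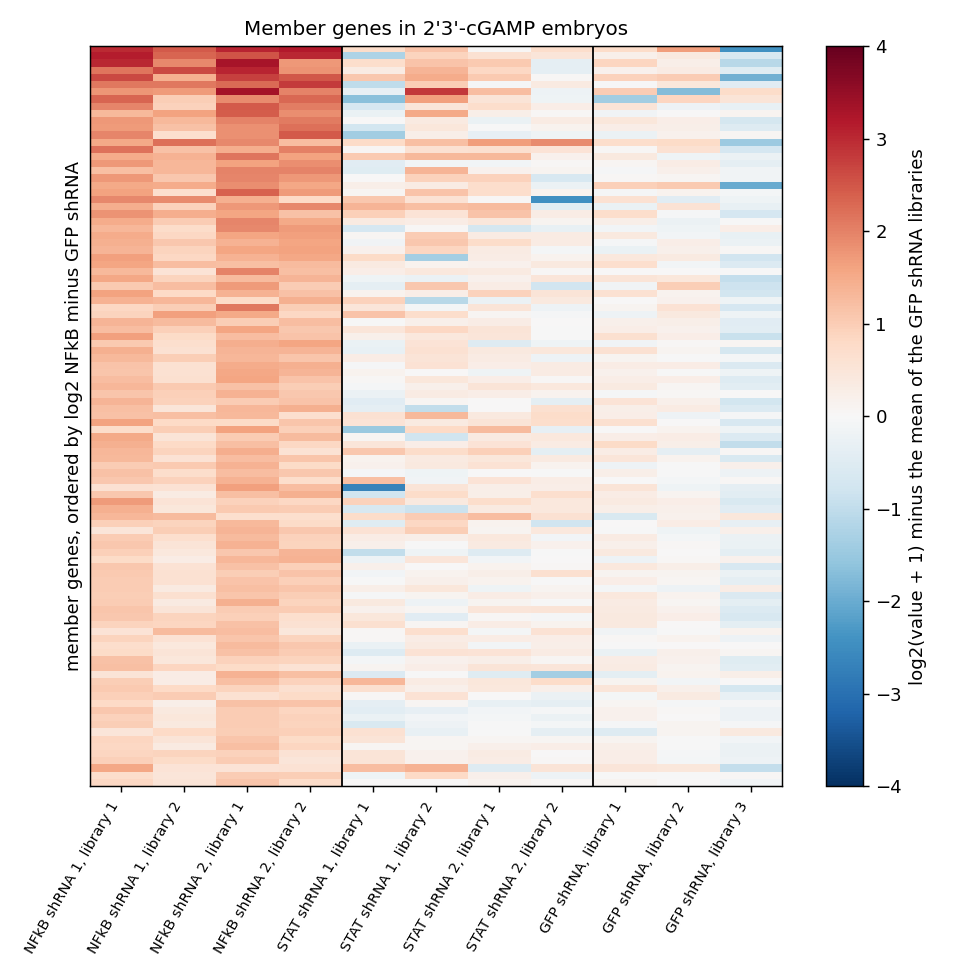
Each row is 1 of the 103 genes and each column 1 library from 2'3'-cGAMP embryos (NFkB, STAT, then GFP shRNA). Colour gives log2(value + 1) minus the mean of the GFP shRNA libraries of that gene, and rows run from the largest NFkB minus GFP difference, 2.92, at the top to the smallest, 0.80, at the bottom. The red block of 4 NFkB columns is what the selection required, while the STAT columns were not used for it.

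The largest difference belonged to LOC116615890, a gene near the lower end of detection. Its values were 91.4 and 63.9 with NFkB shRNA 1, 97.2 and 106 with NFkB shRNA 2, against 18.7, 36.8 and 1.19 with GFP shRNA. All NFkB libraries were high and the GFP libraries were spread widely, with GFP library 3 close to 1. The difference of log2 means was 2.92. NCBI Gene 5510255 followed, at far higher values, with 13815 and 7973 with NFkB shRNA 1, 9122 and 12669 with NFkB shRNA 2, against 1823, 2084 and 1036 with GFP shRNA. Here the lowest NFkB library was several-fold above the highest GFP library, and the difference was 2.75. LOC5515329 had 359 and 363 with NFkB shRNA 1, 406 and 589 with NFkB shRNA 2, against 82.7, 115 and 60.2 with GFP shRNA, a difference of 2.32.

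In LOC116603002 the values were 187 and 86.8 with NFkB shRNA 1, 226 and 76.3 with NFkB shRNA 2, against 41.6, 26.2 and 9.92 with GFP shRNA. Both hairpins gave 1 high and 1 lower library, and the difference was 2.49. LOC116616113 had 157 and 227 with NFkB shRNA 1, 296 and 126 with NFkB shRNA 2, against 39.4, 44.9 and 24.6 with GFP shRNA, for a difference of 2.40. The other members at 2 or more were LOC5522097 at 2.33 and LOC5504786 at 2.21. In LOC5504786, GFP library 2 was at 6.01, against 45.4 and 37.3 in the other GFP libraries. LOC116612005 at 1.88, LOC5502860 at 1.84 and LOC5518661 at 1.79 completed the leading 10.

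**Figure D2:**
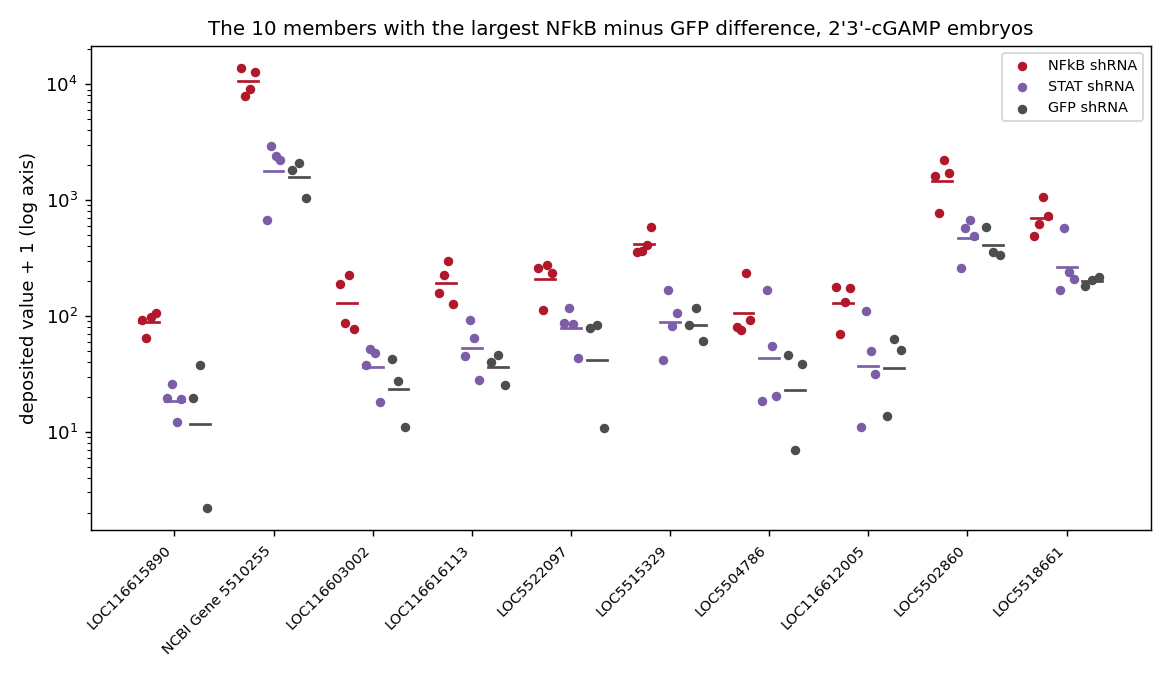
Deposited value + 1 on a log axis for the 10 genes with the largest NFkB minus GFP difference, 1 point per library from 2'3'-cGAMP embryos, with a bar at the mean of the log values. For LOC116615890 the NFkB libraries lie between 63.9 and 106 and the GFP libraries between 1.19 and 36.8. STAT points overlap the GFP points in all 10 genes.

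The 6 genes with the highest deposited values among the 103 had NFkB minus GFP differences between 0.82 and 1.26. LOC5517702 had 95638 and 60694 with NFkB shRNA 1, 78256 and 83515 with NFkB shRNA 2, against 46744, 44964 and 16895 with GFP shRNA, a difference of 1.26. GFP library 3 was the lowest of the 3 by a wide margin. LOC116612004 had 19708 and 17792 with NFkB shRNA 1, 23980.5 and 19475 with NFkB shRNA 2, against 8822, 9469 and 9357 with GFP shRNA, a difference of 1.13. Both groups of LOC116612004 were narrow, and the lowest NFkB library lay well above the highest GFP library. LOC5521493 differed by 0.82, LOC5521648 by 0.94, LOC5516586 by 0.91 and LOC5520746 by 1.01. In LOC5520746 the lowest NFkB library was only 1.01 times the highest GFP library.

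Single libraries shaped which genes were taken. NFkB shRNA 1 library 2 was the lowest NFkB library for 69 of the 103 genes, and GFP library 1 was the highest GFP library for 56, library 2 for 33 and library 3 for 14. Without NFkB shRNA 1 library 2, 180 genes met the same conditions, 100 of them among the 103. Without GFP library 3, 100 genes met them, of which 71 were among the 103. Without untreated GFP library 1 of the STING experiment, 89 genes met them, 86 of them among the 103. When every library was set to the same total, 90 genes met them, 78 of them among the 103. The margin between the lowest NFkB and the highest GFP library was smallest for LOC5520851, LOC5520746 and LOC5516353, with ratios of 1.01, 1.01 and 1.02, and just outside were LOC5505625, NCBI Gene 116606421 and LOC5501632, with ratios of 0.973, 0.992 and 0.996. For the difference of log2 means, LOC5515276, LOC5521946 and NCBI Gene 5496441 lay just inside at 0.80, whereas LOC5508166, NCBI Gene 116613147 and LOC5505783 lay just outside at 0.79. For the response to 2'3'-cGAMP, LOC5520568 at 1.01, NCBI Gene 5518412 at 1.05 and LOC5520129 at 1.05 lay just inside. LOC5506562 at 0.99, LOC5515222 at 0.97 and LOC5505898 at 0.95 lay just outside. For the value in the lowest NFkB library, LOC116615292 at 33.7, NCBI Gene 5522220 at 35.8 and NCBI Gene 116608646 at 36.5 lay just inside. NCBI Gene 116614835 at 25.1, NCBI Gene 116612207 at 27.1 and LOC5512545 at 28.6 lay just outside.

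The choice required each of the 4 NFkB libraries to exceed each GFP library, so the genes stood above GFP with both hairpins, and disagreement between the hairpins was limited by it. The median difference from GFP was 1.18 with NFkB shRNA 2, with a range of 0.56 to 3.12, and 1.02 with NFkB shRNA 1, with a range of 0.40 to 2.73. Set directly against each other, NFkB shRNA 2 was above NFkB shRNA 1 for 79 of the 103 genes and below it for 24, with a median log2 difference of 0.24, against 0.00 for all tested genes. The same median was 0.23 for the remaining genes raised by 2'3'-cGAMP and 0.11 for the raised genes that were lower with the NFkB shRNAs. limma called 0 of the 103 genes and 0% of all 20058 tested genes at an adjusted p below 0.05, with 9 of the 103 at an unadjusted p below 0.05. These libraries chose the genes, and nothing is read from the count. Without NFkB shRNA 1 library 2, the median hairpin difference was 0.07, and without NFkB shRNA 1 library 1 it was 0.47. The largest excess of hairpin 2 was 0.92 in LOC5504786, and the largest excess of hairpin 1 was in LOC5513013 at -0.80, followed by NCBI Gene 5503310 at -0.64 and NCBI Gene 5496441 at -0.49. In NCBI Gene 5496441 the values were 85.4 and 87.5 with NFkB shRNA 2, against 172 and 86.2 with NFkB shRNA 1, so library 1 of hairpin 1 stood alone.

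The shRNAs against STAT give a second knockdown in the same injected and treated embryos, measured against the same 3 GFP libraries. Over the 103 genes the median STAT minus GFP difference was 0.22, with a range of -0.60 to 1.38, beside 1.08 for NFkB minus GFP, and the median over all tested genes was 0.00. The value was above 0 for 81 genes and below 0 for 22. All 4 STAT libraries lay above all 3 GFP libraries for 5 of the 103 genes, against 2.88% of all tested genes, and below them for 0. The 4 STAT libraries lay below all 4 NFkB libraries for 65 of the 103 genes, against 3.19% of all tested genes. These STAT values share the GFP libraries, or the NFkB libraries, with the contrast that chose the genes, and no test was made of them.

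The 5 genes with every STAT library above every GFP library were singled out after their values were seen: LOC5499133, LOC5510601, NCBI Gene 5497141, NCBI Gene 5503310 and NCBI Gene 116608941. NCBI Gene 5503310 had 454 and 552 with STAT shRNA 1, 641 and 419 with STAT shRNA 2, and 180.5, 306 and 372 with GFP shRNA. Its NFkB libraries, at 685 and 665 with hairpin 1 and 434 and 434 with hairpin 2, overlapped the STAT libraries. Its STAT minus GFP difference was 0.89, beside 0.98 for NFkB minus GFP. NCBI Gene 116608646 had the largest STAT minus GFP difference of the 103, 1.38, but its values were low and GFP library 3 was at 4.82. At the other end stood NCBI Gene 5510255, with 677 and 2914 for STAT shRNA 1, 2388 and 2224 for STAT shRNA 2 and the GFP values given above. Its STAT and GFP libraries overlapped, and its NFkB minus STAT difference of 2.56 was the highest among the 103 genes.

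In the experiment that supplied the 2'3'-cGAMP response, the 103 genes were higher in 2'3'-cGAMP embryos by a median of 1.87 on the log2 scale over untreated embryos, with a range of 1.01 to 6.0. The difference was at least 3 for 21 genes. All 6 libraries from treated embryos lay above all 6 from untreated embryos for 61 genes, against 7.96% of all tested genes, and again the count follows from the choice. In untreated embryos 17 genes averaged under 30. LOC5521493 had a lowest, median and highest value of 17064, 21143 and 26868 in 2'3'-cGAMP embryos, against 129.8, 361 and 769.6 in untreated embryos. The groups did not overlap, and its difference of 6.0 was the highest of the 103. LOC5521648 had 13199, 20876 and 25461 in 2'3'-cGAMP embryos, against 285, 385 and 689 in untreated embryos, a difference of 5.59. LOC5502860 had 233, 384 and 529.5 in 2'3'-cGAMP embryos, against 0, 21.2 and 50.8 in untreated embryos, where 2 libraries were at 0. The size of the response and the NFkB minus GFP difference were nearly unrelated across the 103 genes, with Pearson's r = 0.11 and Spearman's rho = 0.10. Both measures were cut off by the conditions that chose the genes, and genes of 1 library are not independent.

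A pair of neighbouring coding genes occurred among the 103 in 4 places of the annotation, with no coding gene between them. They were LOC5511548 with LOC116617840, LOC5518661 with LOC5518705, LOC5520851 with LOC5520746, and LOC116612004 with LOC116612005. In the NFkB minus GFP contrast LOC5518661 and LOC5518705 differed by 1.79 and 1.62, and the coding genes on either side, LOC5518662 and LOC5518663, by 0.64 and 0.71 without meeting the conditions. LOC5511548 and LOC116617840 differed by 1.14 and 1.20. On their outer sides, LOC5511581 differed by 1.01 but responded to 2'3'-cGAMP by 0.55, and LOC5511530 went the other way at -0.53 with a response of 1.30. LOC5520851 and LOC5520746 had NFkB minus GFP differences of 1.18 and 1.01 and responses to 2'3'-cGAMP of 3.11 and 3.77. The coding genes on their outer sides, LOC5520745 and LOC5520747, differed by 0.12 and -0.34. Beside LOC116612004 and LOC116612005, LOC5504324 differed by 0.21, and the gene on the other side was not measured in both embryo experiments. How many such pairs other genes of the annotation would form was not taken. The values of neighbours can share reads where the gene models overlap or are near copies, and how the counting treated such reads is not given in the sources used here.

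The 12 libraries of the STING experiment all entered the mean response that chose the genes, so a low value in any untreated library helped a gene to be taken. The values by shRNA are therefore given as descriptions, and nothing is read from the counts of calls. In embryos treated with 2'3'-cGAMP, the median log2 difference between STING and GFP shRNAs was 0.25 over the 103 genes. It was 0.15 over the remaining genes raised by 2'3'-cGAMP, 0.08 over the raised genes that were lower with the NFkB shRNAs and 0.05 over all tested genes. limma called 0 of the 103 genes there, against 0% of all 20879 tested genes, with 5 of the 103 at an unadjusted p below 0.05. In untreated embryos the median log2 difference was 0.55 over the 103 genes, with 82 of them above 0. It was 0.54 over the remaining raised genes, 0.37 over the raised genes lower with the NFkB shRNAs and 0.08 over all tested genes, so other genes chosen by the same response stood at similar values. limma called 0 of the 103 genes in untreated embryos, against 0.00479% of all tested genes, with 18 at an unadjusted p below 0.05. No share of all tested genes is given for the unadjusted counts of 5 and 18, and nothing is read from them.

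The difference in untreated embryos was smaller without GFP library 1, the library with 21.6% of genes at 0. Of the 103 genes, 22 were at 0 in GFP library 1, beside 1 in GFP library 2, 7 and 5 in the STING shRNA 1 libraries and 1 in each STING shRNA 2 library. Without that library the median difference was 0.15. A fit without GFP library 2 left library 1 as the only control and assumed that it varies like the other groups. All of these libraries entered the choice of the genes, which favoured low values in them. Nothing is therefore read from the calls of that fit.

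Single genes differed in how the shRNA groups stood, and those given here were singled out after their values were seen. LOC5520746 in untreated embryos had 529 and 521 with STING shRNA 1, 804 and 664 with STING shRNA 2, and 198 and 249 with GFP shRNA. Both GFP libraries lay below all 4 STING libraries. Its neighbour LOC5520851 had 677 and 804 with STING shRNA 1, 762 and 796 with STING shRNA 2, and 344 and 610.4 with GFP shRNA. NCBI Gene 5503310, named above for its STAT values, had 379 and 318 with STING shRNA 1 and 701 and 705 with STING shRNA 2, against 148 and 136 with GFP shRNA. All 4 STING libraries again lay above both GFP libraries.

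The selecting response, taken apart by shRNA, had a median over the 103 genes of 2.17 with STING shRNA 1, 1.46 with STING shRNA 2 and 2.15 with GFP shRNA, and it was above 0 for 101, 100 and 103 of the genes. These counts follow from the choice, which required the mean over the same libraries to be at least 1. The difference in response between STING and GFP shRNAs had a median of -0.33 over the 103 genes. It was also -0.33 over the remaining raised genes and over the raised genes lower with the NFkB shRNAs, and -0.03 over all tested genes. limma called 0 of the 103 genes and 0% of all tested genes, with 2 of the 103 at an unadjusted p below 0.05. No share of all tested genes is given for that unadjusted count, and nothing is read from it. The median was -0.00449 without untreated GFP library 1. A fit without untreated GFP library 2 left library 1 as the only untreated GFP control. Its calls are not read, since the same libraries chose the genes.

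**Figure D3:**
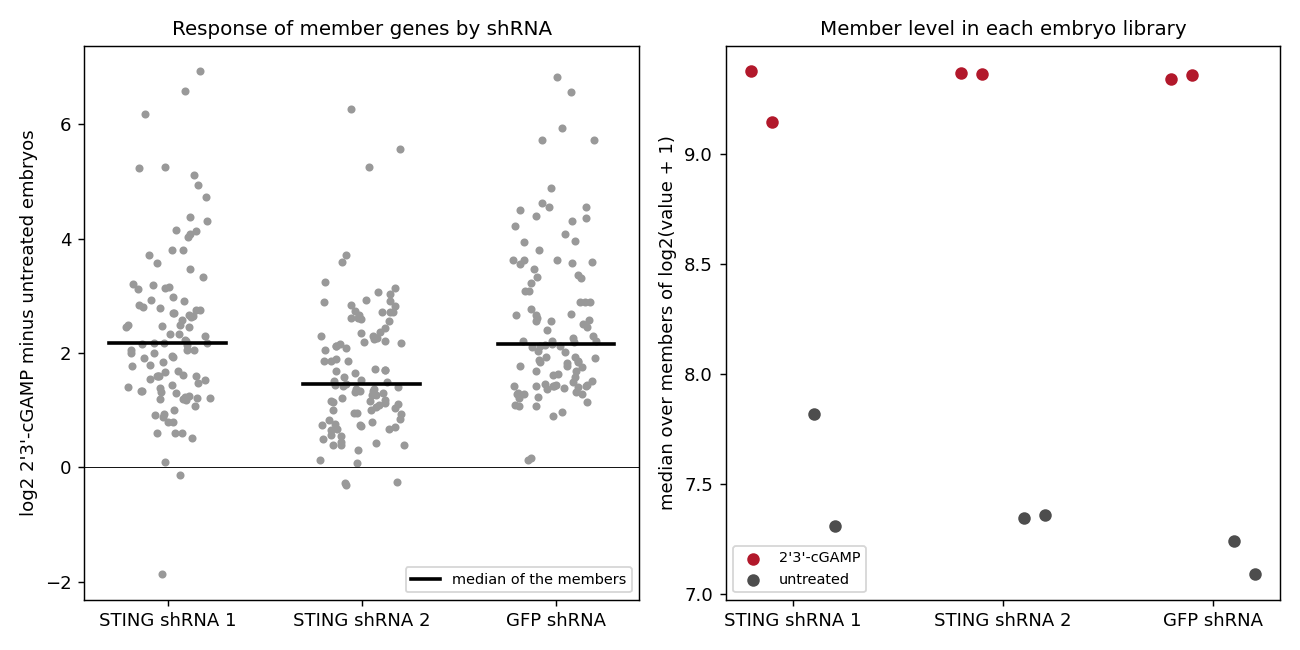
Left, log2 2'3'-cGAMP minus untreated for each of the 103 genes (points) by shRNA, with the median as a bar at 2.17, 1.46 and 2.15 for STING shRNA 1, STING shRNA 2 and GFP shRNA. Right, the median over the genes of log2(value + 1) in each of the 12 libraries, with 2'3'-cGAMP libraries between 9.15 and 9.38 and untreated libraries between 7.09 and 7.82. These libraries chose the genes, so the separation follows from the choice.

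In polyps, which differed from embryos in stage, dose and length of exposure and played no part in the choice, most of the 103 genes also rose with 2'3'-cGAMP. Without a filter on low values, limma called 74 of the 102 genes in the polyp table higher and 3 lower than in untreated polyps. The shares of all 21260 genes were 25.0% and 26.4%. With the filter (10 or more in 2 or more of the table's libraries), 96 genes were tested, of which 73 were called higher and 3 lower, against 28.5% and 30% of all 18511 tested genes (58.5% in either direction). Of these 96 genes, 84 passed the filter without the help of the 2'3'-cGAMP libraries, and 68 of the 84 were called higher and 3 lower. No share was taken over all genes that passed in that way. The median log2 change was 2.46, against -0.10 for all tested genes, and 33 genes were higher by at least 3. Both 2'3'-cGAMP libraries lay above both untreated libraries for 81 of the 96 genes and below both for 3. The share of all tested genes separated in this way was not taken, so nothing is read from these counts. The 2'3'-cGAMP libraries had higher deposited totals but not more reads, at an estimated 9.37 and 11.8 M against 10.8 to 17.4 M in the other polyp libraries. In them 1 read equalled a value of 2.38 and 1.90, against 0.56 to 0.93 in the others. The same number of reads therefore gave a higher value with 2'3'-cGAMP. When every library was set to the same total, 55 genes were called higher and 11 lower, against 11.3% and 60.7% of all tested genes. The median was then 1.30, against -1.23 for all tested genes.

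LOC116612005 was close to 0 in polyps without 2'3'-cGAMP. Its values were 443 and 493 with 2'3'-cGAMP, against 0.849 and 0.885 in untreated polyps, which equals about 1 read in each library. The ratio was 544, with an exact 95% interval of 150 to 4500 that covers counting error only. Its log2(value + 1) change of 7.97 depends on the added constant, being 8.42 with 0.5 and 6.33 with 5, and the gene passed the filter only through the 2'3'-cGAMP libraries. LOC5521648 had 18900.5 and 19177 with 2'3'-cGAMP, against 86.6 and 87.6 untreated. The replicates nearly coincided in both groups, and the log2 change was 7.76 ± 0.20 (SE) with adjusted p = 9.49e-10 by limma. LOC5521493 had 25795 and 24394 with 2'3'-cGAMP, against 254 and 228 untreated, a log2 change of 6.70 ± 0.23 (SE) with adjusted p = 3.94e-09. LOC5521493 and LOC5521648 also had the highest responses of the 103 in embryos. LOC116616645 had 229.6 and 221 with 2'3'-cGAMP, against 5.50 and 3.28 untreated, and it also passed the filter only through the 2'3'-cGAMP libraries. LOC5516931 had 8851 and 8842 with 2'3'-cGAMP, against 333 and 303 untreated, a log2 change of 4.80 ± 0.14 (SE).

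Of the 10 genes with the largest NFkB minus GFP difference, 9 were tested in polyps. There 8 were called higher and 1 lower, against 28.5% and 30% of all tested genes. Among the 10 highest polyp changes were 3 of them (LOC116612005, LOC5515329 and NCBI Gene 5510255). LOC116612005, NCBI Gene 5510255 and LOC116615890 passed the filter only through the 2'3'-cGAMP libraries, where they were high, so nothing is read from their calls. LOC5515329 had 7615 and 10464 with 2'3'-cGAMP, against 382 and 287 in untreated polyps, a log2 change of 4.75 ± 0.19 (SE). LOC5504786 changed by 0.92 ± 0.14 (SE), but stood at -0.23 and was not called when library totals were made equal. With equal totals LOC116616113 at 0.26 and LOC116615890 at 1.64 were no longer called either. NCBI Gene 5510255 had 76.3 and 133 with 2'3'-cGAMP, against 3.40 and 4.43 untreated. Its few reads in untreated polyps leave the size uncertain, and its change is given as a description. LOC5502860 stood at 0 in each polyp library with 2'3'-cGAMP, against 2.55 and 0 in untreated polyps, and was not tested. Both neighbours of each pair named above rose in polyps: LOC5518661 by 2.57 ± 0.42 (SE) and LOC5518705 by 4.70 ± 0.32 (SE), LOC5511548 by 2.13 ± 0.13 (SE) and LOC116617840 by 2.30 ± 0.14 (SE), LOC5520851 by 1.72 ± 0.26 (SE) and LOC5520746 by 2.46 ± 0.39 (SE), and LOC116612004 by 2.30 ± 0.29 (SE) beside LOC116612005. With equal totals, LOC5520851 was no longer called, at 0.57. Across the 96 tested genes, the polyp change went with the embryo response at Pearson's r = 0.39 and Spearman's rho = 0.30, and with the NFkB minus GFP difference at r = -0.07 and rho = -0.06. These are descriptions across genes that share libraries, and 12 of the 96 passed the filter only through the 2'3'-cGAMP libraries.

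**Figure D4:**
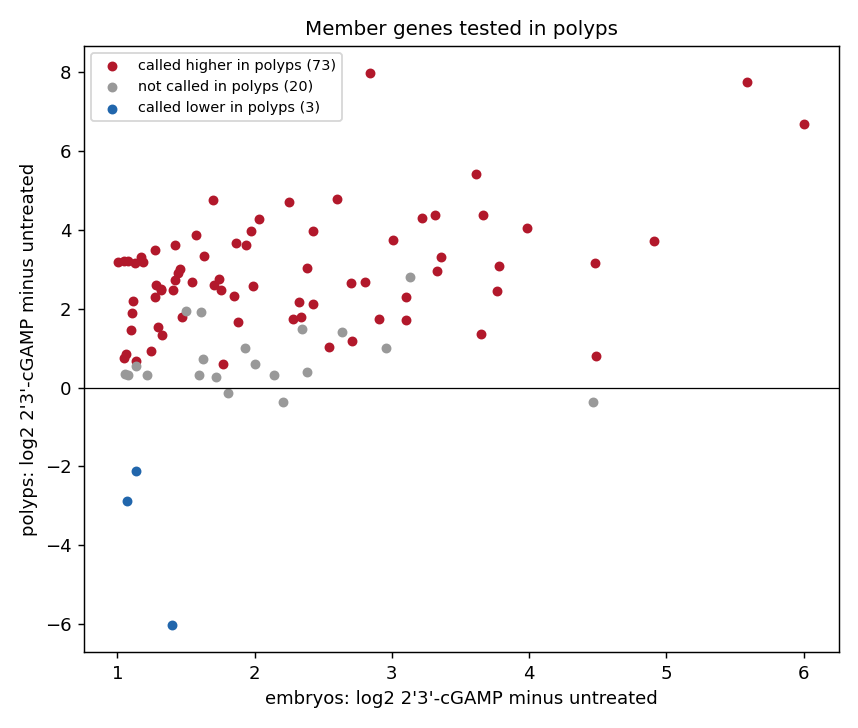
Each point is 1 of the 96 genes tested in polyps, with the log2 change with 2'3'-cGAMP in embryos (x axis, at least 1 by choice) and in polyps (y axis). Genes called higher in polyps (73, red) span 0.60 to 7.97, genes not called (20, grey) -0.36 to 2.80, and the 3 called lower (blue) -6.02 to -2.11, all at embryo responses below 1.5.

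The 3 genes that fell in polyps were LOC116603002, NCBI Gene 116608646 and LOC5513881. LOC116603002, among the leading genes in NFkB shRNA embryos, had 0 and 1.90 with 2'3'-cGAMP, against 128 and 92.9 in untreated polyps. About 1 read was left over both treated libraries, against 256 in the untreated ones, a ratio of 0.00952 with an exact 95% interval of 0.00024 to 0.0535 for counting error only. The log2(value + 1) change was -6.02 ± 0.43 (SE) with adjusted p = 1.08e-06, and -6.65 and -4.28 with 0.5 and 5 added. Its values with the other compounds stayed between 97.4 and 148. In embryos it had a lowest, median and highest value of 38.3, 58.8 and 70.9 with 2'3'-cGAMP, against 0.730, 33.5 and 58.5 untreated, so the groups overlapped. LOC5513881 had 154 and 152 with 2'3'-cGAMP, against 696 and 637 in untreated polyps, a log2 change of -2.11 ± 0.14 (SE) with adjusted p = 6.24e-07. Its embryo values were 54.4, 91.6 and 105 with 2'3'-cGAMP, against 7.20, 55.9 and 86.3 untreated, which overlapped as well. NCBI Gene 116608646 had 0 and 1.90 with 2'3'-cGAMP, against 23.8 and 5.31 untreated, a log2 change of -2.88 ± 0.83 (SE) with adjusted p = 0.0126. This call rested on about 1 read in the treated and 34 in the untreated libraries, a ratio of 0.0717 with an exact 95% interval of 0.00176 to 0.427 for counting error only, and was lost without 2'3'-cGAMP library 1 or without untreated library 1, at -2.11 and -1.89.

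Of the 20 tested genes that were not called, only LOC5521527, LOC5516353 and NCBI Gene 5496008 had a log2 change below 0. LOC5521527 had 112 and 176 with 2'3'-cGAMP, against 185 and 176 in untreated polyps, and a 95% interval of -0.84 to 0.12. NCBI Gene 5496008 had 0 and 19.0 with 2'3'-cGAMP, against 4.25 and 5.31 untreated, and its interval of -3.15 to 2.42 left the direction unknown. LOC5516353 had 243 and 284 with 2'3'-cGAMP, against 332 and 249 untreated, with an interval of -0.51 to 0.25. LOC5521527 and LOC5516353 were called lower when library totals were made equal, at -1.50 and -1.28, and LOC5521527 also without 2'3'-cGAMP library 2, at -0.68. A further 6 genes in the polyp table failed the filter, and NCBI Gene 5522220 was absent from the table.

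The polyp data place the 103 genes beside other sets chosen in embryos. Among the genes raised by 2'3'-cGAMP and lower with the NFkB shRNAs, 160 of 185 tested were called higher in 2'3'-cGAMP polyps and 0 lower, with a median of 3.76. Among the remaining genes raised in embryos, 63.7% of 2175 were called higher, with a median of 1.92. Among genes higher with the NFkB shRNAs but not raised in embryos, 29.5% of 183 were called higher and 26.8% lower, with a median of -0.08. The corresponding share for the 103 genes was 76.0% of 96. No test was made between these sets.

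The other cyclic dinucleotides, at the dose and time of 2'3'-cGAMP, moved few of the 103 genes past the threshold. c-di-AMP, in which both nucleotides carry adenine, raised 2 of 96 genes (2.08%) and lowered 0, against 0.773% of all tested genes called higher and 0.0162% called lower. Among the remaining genes raised in 2'3'-cGAMP embryos, 5.33% of 2175 were called higher. The share was 9.73% of 185 among the raised genes lower with the NFkB shRNAs. It was 0% of 183 among genes higher with the NFkB shRNAs but not raised. No test was made between these sets. LOC5521493 had 904 and 551 with c-di-AMP, against 254 and 228 untreated, a log2 change of 1.55 ± 0.23 (SE) with adjusted p = 0.0123 by limma. LOC5521648 had 255 and 204 with c-di-AMP, against 86.6 and 87.6 untreated, a log2 change of 1.38 ± 0.20 (SE) with adjusted p = 0.0128. In both genes the c-di-AMP libraries lay above the untreated ones and far below the 2'3'-cGAMP ones. The count was 0 without c-di-AMP library 1, without untreated library 1 or without untreated library 2. The median change over the 96 genes was 0.15, with 66 genes above 0.

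3'3'-cGAMP differs from 2'3'-cGAMP in one of the phosphodiester linkages between its guanosine and adenosine. limma called 0 of 96 genes between 3'3'-cGAMP and untreated polyps, against 0.054% of all tested genes. The median log2 change was 0.01, and 7 genes had an unadjusted p under 0.05. Without 3'3'-cGAMP library 2, 1 gene was called lower. LOC5521493 had 480.3 and 389 with 3'3'-cGAMP, a log2 change of 0.84 ± 0.23 (SE) with adjusted p = 0.729. In c-di-GMP polyps the count was 0 of 96 by limma, against 0% of all tested genes. The median was 0.11, and 9 genes had an unadjusted p under 0.05. No share of all tested genes is given for the unadjusted counts of 7 and 9, and nothing is read from them. The 95% interval of the change lay within -1 and 1 for 8 genes in 2'3'-cGAMP polyps, 62 in 3'3'-cGAMP polyps, 62 in c-di-AMP polyps and 61 in c-di-GMP polyps. For the remaining genes a change of 1 was within the interval or beyond it, so the tests do not show that these compounds leave them unchanged.

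**Figure D5:**
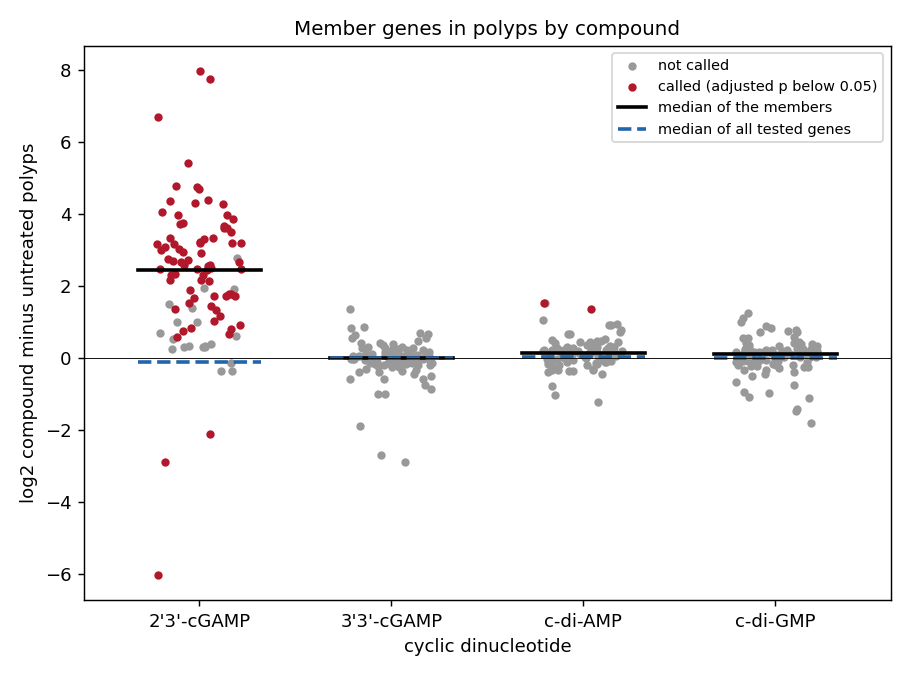
Log2 change of each of the 96 tested genes against untreated polyps (points) by compound, each at 500 µM for 24 h. Red points passed an adjusted p below 0.05 (76 genes with 2'3'-cGAMP, 2 with c-di-AMP), the black bar is the median of the 96 genes and the dashed blue bar that of all tested genes.

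Set directly against each other, 2'3'-cGAMP and 3'3'-cGAMP differed for 79 of the 96 genes. limma called 76 higher and 3 lower with 2'3'-cGAMP, against 28.6% and 29.5% of all tested genes (58.1% in either direction). The median difference was 2.35, against -0.10 for all tested genes. Of the 96 genes, 12 passed the filter only through the 2'3'-cGAMP libraries. Without a filter on low values the counts were 77 and 3, against 25.1% and 25.9% of all 21260 genes. With equal library totals the counts were 59 and 10, against 10.9% and 60.6% of all tested genes. The smallest p-values belonged to genes with tight replicates. LOC5517054 had 19945 and 22269.9 with 2'3'-cGAMP, against 1522 and 1536 with 3'3'-cGAMP, a log2 difference of 3.78 ± 0.10 (SE) with adjusted p = 1.54e-09. LOC5515672 had 8470.4 and 8074 with 2'3'-cGAMP, against 442 and 432 with 3'3'-cGAMP, a log2 difference of 4.24 ± 0.12 (SE). LOC5521648, LOC5516931, LOC5517702 and LOC116604507 followed, with log2 differences of 7.18, 4.81, 3.77 and 3.47. The 3 genes lower with 2'3'-cGAMP were those that fell against untreated polyps: LOC116603002 by -5.90 ± 0.43 (SE), NCBI Gene 116608646 by -2.70 ± 0.83 (SE) and LOC5513881 by -1.86 ± 0.14 (SE). The call for NCBI Gene 116608646 was lost without 2'3'-cGAMP library 1 or without 3'3'-cGAMP library 2, at -1.94 and -2.47.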

How the data were processed

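The authors deposited 3 tables of normalized signal per gene, which are called normalized counts per the labels and hold values that are not whole numbers. DESeq2, kallisto 0.46.1 (a pseudoaligner) and FastQC 0.11.9 appear in the submitters' processing notes, while the annotation is not given in the sources used here. The tables were normalized separately and tested apart. Signal was put on a log2 scale after adding 1. Genes with 10 or more in 2 or more libraries of their table entered limma 3.58.1 (R 4.3.3), with 1 mean per group and moderated, trended variances over all groups of the table. Two-sided p-values were corrected by Benjamini-Hochberg across every tested gene of a comparison, and an adjusted p below 0.05 counted as a call. Both hairpins against a gene were averaged. The STING and hairpin comparisons use libraries that also chose the genes and are descriptions; the polyp libraries are separate. The fit was tested on simulated data. Depth was approximated from the deposited total and the value of 1 read, and the number of libraries (2 to 4 per averaged group) limits the precision.

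The genes, the comparisons and 15 name-based lists were chosen with earlier results of these data known. The lists, among them markers of cnidocytes, neurons, gland and muscle, matched 0 genes, so no cell-type marker is reported. Named genes were the 10 with the largest NFkB minus GFP difference, the 6 highest in NFkB libraries, those nearest to each threshold, the 5 highest and 5 lowest in 2'3'-cGAMP polyps, and at most 6 called in each direction in every other comparison. Other names were added after their values were seen, where a result turned on them. No promoter or protein sequence was used here. Alternatives were pseudocounts of 0.5 and 5, no filter, a mean of at least 50, TMM factors, equal library totals, a fit of only the groups compared, a block for the replicate number, and leaving out each library.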

Additional observations from a re-analysis of the deposited data

Results flagged for a closer look

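The median over the 103 genes of log2(value + 1) was taken in each embryo library, and a library was noted where its gap to the nearest other library, divided by the whole range, passed Dixon's 95% value. Among the 6 libraries from 2'3'-cGAMP embryos, STING shRNA 1 library 2 was lowest at 9.15 against 9.34 to 9.38 in the other 5, a ratio of 0.852. Among the 6 from untreated embryos, STING shRNA 1 library 1 was highest at 7.82 against 7.09 to 7.36, a ratio of 0.628. Chance passes this value in about 1 of 20 groups drawn as 1 sample, but each set of 6 pools 3 shRNAs. All of these libraries also entered the mean response that chose the genes. The ratios are descriptions, and nothing is read from them. Without the first of these libraries, 105 genes met the conditions, and without the second, 102 did.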

How the results depend on the processing

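Under the alternatives, 110 counts of genes called in the 9 comparisons stayed within 1.5 times the reported count and 7 did not. The c-di-AMP count of 2 became 0 with the compared groups alone and lay between 0 and 2 with a library left out. The 3'3'-cGAMP count lay between 0 and 1, the STING against GFP count in untreated embryos between 0 and 22, and the difference in response between 0 and 10. For the 2'3'-cGAMP polyps the calls lay between 66 and 78 over all alternatives, and for 2'3'-cGAMP against 3'3'-cGAMP between 66 and 81. The number of genes that met the conditions was 219 with NFkB shRNA 2 alone and 124 with NFkB shRNA 1 alone, 96 and 81 of them among the 103, 90 with equal totals, and 89 to 180 with a library left out. With equal totals LOC5504786 stood at -0.23 in 2'3'-cGAMP polyps, no longer called and below 0. The cause of these shifts was not tested. Same-numbered libraries did not deviate together in every pair, with correlations between -0.10 and 0.07 (polyps), 0.02 and 0.28 (STING experiment), and -0.01 and 0.09 (NFkB and STAT experiment). With the number as a block, the calls were 76 for 2'3'-cGAMP, 2 for c-di-AMP, 79 for 2'3'-cGAMP against 3'3'-cGAMP and 0 for the other comparisons where the block could be fitted, as without it. No such fit was made for STING against GFP in 2'3'-cGAMP embryos or for the difference in response, whose numbers are not shared. Depth limits genes near 0 most.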
